A study of Drosophila melanogaster with 33 samples.

Results

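Dense clusters of AbdA binding are stretches of the fly genome in which HA-AbdA peaks follow each other at short distance. They were chosen by the HA-AbdA peak positions alone, by sorting the HA-AbdA peaks along each chromosome, joining peaks whose gap to the previous peak was 10000 bp or less, and keeping groups of 20 or more. Of 2628 groups made in this way, 39 met the threshold. They hold 1049 of the 10352 HA-AbdA peaks (10.1%). Counting the peaks of all 13 lists that lie wholly inside these spans gave 6185 of 94396 peaks, of which 5136 belong to the other proteins. Because HA-AbdA peaks were used for the choice, their number, spacing, width and score there are descriptions. The other lists played no part in the choice.

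AbdA (Abdominal-A) is a Hox transcription factor that gives abdominal segments of the fly their identity, and Hox proteins are known to bind many enhancers and promoters at once. The study used S2-DRSC cells, an embryo-derived Drosophila melanogaster line labelled wild type, and S2-DRSC-HA::AbdA cells, which are stably transfected with HA-tagged AbdA (here S2-AbdA cells). All cells of both lines were given 10 µM copper sulphate for 24 h, so the S2 cells without AbdA had the copper too. The sources used here state neither the promoter of the transgene nor whether the line is 1 clone. ChIP-seq, which sequences the DNA bound by a protein, was done with 2 replicates per factor and line.

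The other 6 proteins form 3 kinds. Rpb3, a core subunit of RNA polymerase II, and the polymerase phosphorylated on serine 2 of its tail (Ser2P), which is the elongating form, report on transcription. M1BP, the zinc finger protein that binds the core promoter element Motif 1, and GAF, the GAGA factor, which binds GA repeats and opens chromatin, sit at promoters, and GAF also sits at Polycomb response elements. dRing, a ubiquitin ligase subunit of Polycomb repressive complex PRC1, and E(z), the methyltransferase of PRC2, belong to the machinery that keeps Hox and other developmental genes silent. In flies both complexes are recruited to Polycomb response elements.

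Both replicates of a factor share 1 deposited peak list, so no value below has a spread between replicates and no difference could be tested across samples. Intervals are exact Clopper-Pearson 95% intervals (for a ratio, carried over from the share of peaks inside clusters). They cover counting error only, and neighbouring peaks are not independent of each other. Read depth is unknown. How much the HA antibody pulls down inside the clusters without AbdA was not analysed here, for want of an HA list of S2 cells. In S2-AbdA cells the labels pair HA-AbdA and GAF with input C and the other 5 factors with input D, while all factors of S2 cells go with input B, so line and input cannot be told apart. Positions are on build dm3, and no gene was assigned to a cluster because no annotation of that build was used.

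The clusters were unevenly spread. On 3L there were 16, against 8 on 3R, 7 on 2L, 7 on 2R and 1 on X, and chromosome 4, which has 39 HA-AbdA peaks, had none. Clusters took 17.8% of the HA-AbdA peaks of 3L and 1.46% of those of X, with 8.65% to 10.2% on the other 3 arms. HA-AbdA peaks were less dense on X as a whole, at 6.72 per 100 kb against 9.81 on 3L. Together the clusters span 3.69 Mb, or 3.10% of these 5 chromosomes. A cluster was 52.1 to 170 kb long (median 91.0 kb) and held 20 to 53 HA-AbdA peaks (median 24). HA-AbdA peaks covered 23.4% to 60.4% of a cluster (median 37.6%).

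Length rather than density set these clusters apart from smaller ones. They held 28.4 HA-AbdA peaks per 100 kb, the 202 clusters of 10 to 19 peaks held 26.8, and the 1383 clusters of 2 to 9 peaks held 29.5. Every span begins and ends with an HA-AbdA peak, which raises the density of short spans. HA-AbdA peaks were somewhat wider inside the clusters (median 941 bp against 828 bp in the rest of the same chromosomes), and their median score was 40.4 against 36.2. Of the 500 HA-AbdA peaks with the highest scores, 69 (13.8%) lay in a cluster. The threshold cut through a continuum: the 12 clusters just inside it (20 to 22 peaks) had a median span of 71.9 kb and 28.2 HA-AbdA peaks per 100 kb, and the 31 just outside (17 to 19 peaks) had 66.4 kb and 27.4.

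The cluster with most HA-AbdA peaks, 53 in 170 kb, lay at 3R 16879196 to 17049639. It held 42 Rpb3 peaks in S2 and 39 in S2-AbdA cells, and 8 and 14 Ser2P peaks. M1BP had 19 peaks there in each line. GAF had 22 and 34 peaks, dRing 9 and 9, and E(z) 15 and 14. The equal dRing numbers hid different sites, since 2 dRing regions had peaks in both lines, 7 had one in S2 cells alone and 7 in S2-AbdA cells alone. Its 5 highest-scoring HA-AbdA peaks lay on different company. The first, at 3R 16882031 to 16883827 (score 210), overlapped Rpb3 in both lines and GAF and E(z) in S2-AbdA cells alone. The third, at 3R 16917026 to 16918616 (score 191), overlapped GAF in both lines and nothing else. The fourth, at 3R 16966182 to 16967607 (score 151), overlapped Rpb3, Ser2P, M1BP and GAF in both lines and no Polycomb peak.

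**Figure D1:**
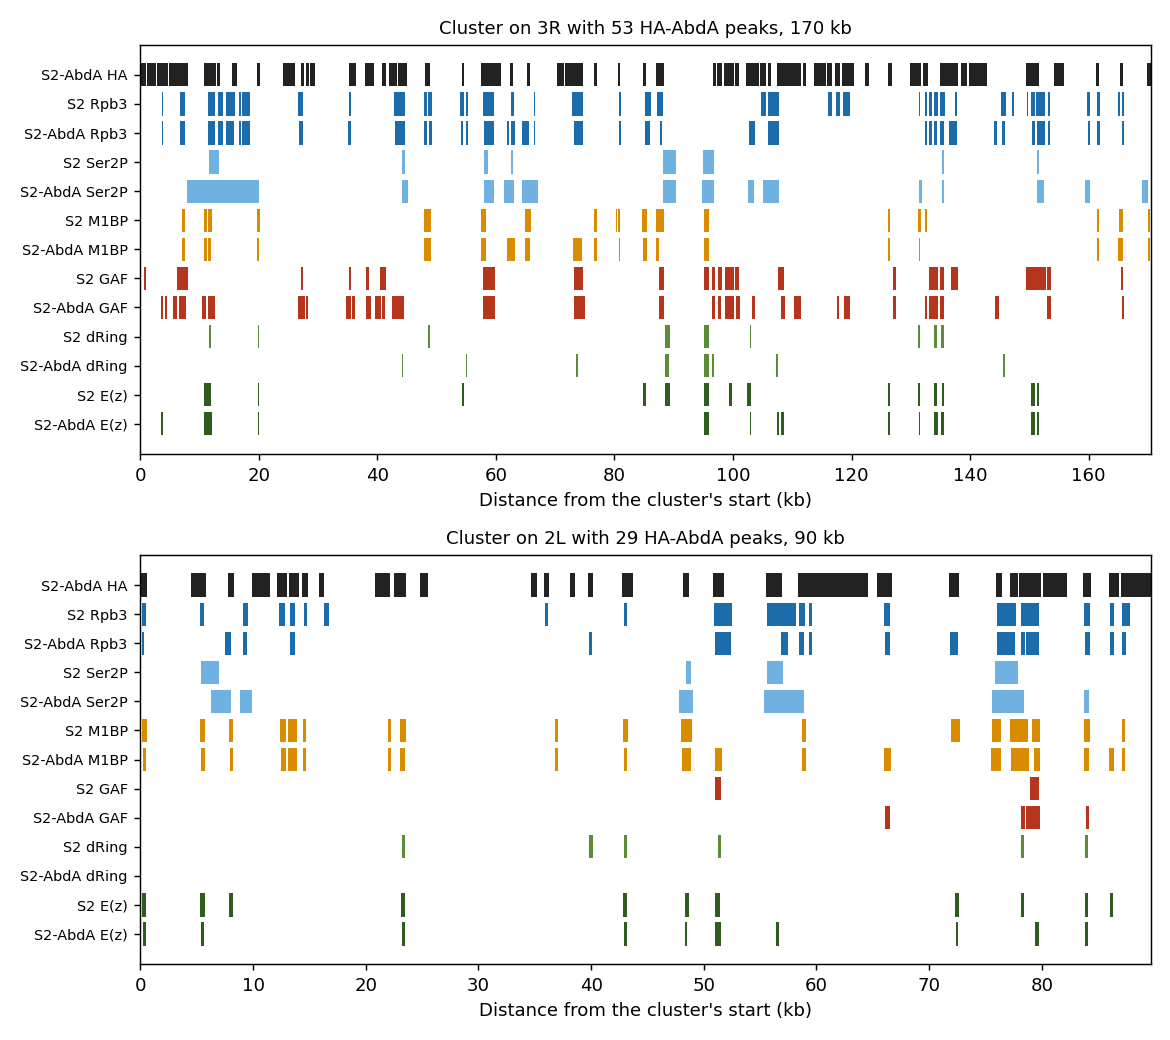
Peaks of the 13 lists in 2 clusters, each drawn as a bar at its distance in kb from the start of the cluster. The upper cluster (53 HA-AbdA peaks on 3R) carries 22 GAF peaks in S2 and 34 in S2-AbdA cells, whereas the lower one (29 HA-AbdA peaks on 2L) carries 2 and 4 GAF peaks beside 18 and 20 M1BP peaks.

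All 6 factors had more peaks per kb inside the clusters than in the rest of the same chromosomes, by a ratio of 1.97 to 3.27. E(z) stood highest and M1BP lowest. Of the 6 factors, Rpb3 had the most peaks inside among the S2 lists, while GAF, with 831, led the S2-AbdA lists. Rpb3 peaks inside numbered 778 in S2 and 753 in S2-AbdA cells. That is 21.1 and 20.4 per 100 kb, against 7.33 and 6.97 in the rest, and ratios of 2.88 (95% interval 2.67 to 3.10) and 2.93 (2.72 to 3.16). Every cluster was above the rest of its own chromosome in Rpb3 density in both lines. Among all 241 clusters of 10 or more HA-AbdA peaks, 92.5% were above it for Rpb3 of S2 cells and 95.9% for Rpb3 of S2-AbdA cells. A cluster held 7 to 42 Rpb3 peaks in S2 cells (median 19). At least 1 peak of each of the 12 factor lists lay in 36 of the 39 clusters. The same count was not made for smaller clusters or other spans of that length, so it cannot be called particular to these clusters.

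Elongating polymerase was sparser, with 135 Ser2P peaks inside in S2 and 237 in S2-AbdA cells. The ratios to the rest were 2.78 (95% interval 2.31 to 3.31) and 2.21 (1.93 to 2.52). Ser2P density was above the rest of the chromosome in 34 clusters in S2 and 35 in S2-AbdA cells (background 80.1% and 88.8% of the 241). In bases, Ser2P peaks covered 5.33% of the clusters in S2 and 12.2% in S2-AbdA cells, against 2.50% and 6.52% of the rest. With the higher-scoring 50% of the S2 list the Ser2P ratio was 1.04, on only 10 peaks inside the clusters.

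M1BP had 337 peaks inside in S2 and 300 in S2-AbdA cells. Its density was 9.13 and 8.13 per 100 kb against 4.62 and 4.13 in the rest, which gives ratios of 1.98 (95% interval 1.77 to 2.21) and 1.97 (1.75 to 2.21). In each line 33 of the 39 clusters were above the rest of their chromosome, next to 84.2% (S2) and 82.2% (S2-AbdA) of the 241. GAF had 455 peaks inside in S2 and 831 in S2-AbdA cells, or 12.3 and 22.5 per 100 kb, with ratios of 2.90 (2.63 to 3.19) and 3.02 (2.81 to 3.24). GAF density was above the rest in 35 and 38 clusters (background 88% and 95%). GAF peaks inside were wider than elsewhere in S2 cells, with medians of 804 and 678 bp, and in S2-AbdA cells had a higher median score, 97.0 against 80.5.

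Of the Polycomb proteins, E(z) had 399 peaks inside in S2 and 372 in S2-AbdA cells, 10.8 and 10.1 per 100 kb. Its ratios were 3.22 (95% interval 2.90 to 3.57) and 3.27 (2.93 to 3.64), and 38 and 37 clusters were above the rest of their chromosome (background 85.1% and 80.5%). dRing had 221 peaks in S2 and 318 in S2-AbdA cells, with ratios of 2.46 (2.14 to 2.83) and 2.60 (2.31 to 2.92), and 35 and 32 clusters above the rest (background 69.3% and 73.9%). dRing peaks of S2 cells were weaker inside, with a median score of 13.5 against 21.1, and with the higher-scoring 50% of that list the ratio was 1.29. Without the clusters of 3L the dRing ratios were 2.023 and 2.004. On single arms the dRing ratio of S2 cells was 1.71 on 2L, 1.81 on 2R, 1.78 on 3R and 3.27 on 3L. That of S2-AbdA cells was 1.22 on 2L (0.841 to 1.72, which includes 1), 2.20 on 2R, 1.85 on 3R and 3.91 on 3L. The 1 cluster of X gave 9.90 and 9.09, on 10 and 12 peaks.

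Set against smaller clusters, most of this excess disappeared. Relative to the spans of clusters of 2 to 19 HA-AbdA peaks, Rpb3 had a ratio of 1.09 in both lines. GAF kept 1.32 and 1.25, E(z) 1.33 and 1.41, and dRing 1.23 and 1.27, in S2 and S2-AbdA cells. M1BP turned below 1, at 0.867 and 0.866, and Ser2P had 1.15 and 0.963. In clusters of 10 to 19 peaks there were 10.6 M1BP peaks of S2 cells per 100 kb, more than the 9.13 of the dense clusters, and 7.82 E(z) peaks, fewer than the 10.8.

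Factor peaks that touched no HA-AbdA peak were counted per kb of sequence free of HA-AbdA peaks. A peak was left out if it shared a single base with HA-AbdA, while all bases free of HA-AbdA stayed in the count of kb. Where HA-AbdA is dense, a peak has less room to avoid it. These ratios can therefore run low, by an amount that was not measured. Rpb3 away from HA-AbdA was still denser inside the clusters, with 150 peaks in S2 cells and a ratio of 2.14 (95% interval 1.81 to 2.53), and 145 in S2-AbdA cells with a ratio of 2.33 (1.96 to 2.75). So was GAF, with 85 peaks and 1.71 (1.36 to 2.12), and 172 peaks and 2.01 (1.72 to 2.34). For E(z) the ratios were 1.06 (0.737 to 1.47) and 1.04 (0.721 to 1.45), and for M1BP 0.950 (0.688 to 1.28) and 0.825 (0.573 to 1.15), intervals that all include 1. Ser2P had 14 such peaks in S2 and 38 in S2-AbdA cells. Its ratios were 0.953 (0.518 to 1.61) and 1.19 (0.839 to 1.64), and these intervals include 1 too. dRing away from HA-AbdA had a ratio of 0.804 (0.508 to 1.21) in S2 cells and 1.501 (1.16 to 1.92) in S2-AbdA cells. The E(z) peaks of the clusters lay on HA-AbdA in 91.0% of cases in S2 cells, against 60.2% in the rest, and the Rpb3 peaks in 80.7% against 62.5%. HA-AbdA covered 37.3% of the cluster sequence and 9.25% of the rest.

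**Figure D2:**
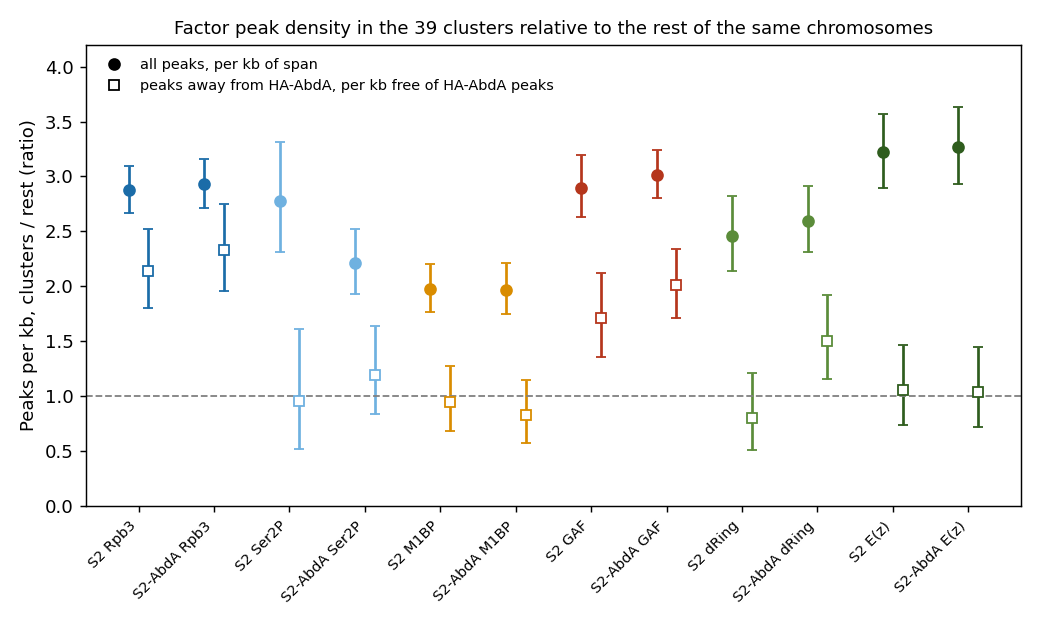
Peaks per kb in the 39 clusters divided by peaks per kb in the rest of the same 5 chromosomes, for each factor list. Filled circles count all peaks, and open squares count peaks that touch no HA-AbdA peak per kb free of HA-AbdA. Bars are 95% intervals of counting error, and the dashed line marks a ratio of 1. The intervals of Rpb3 and GAF lie above 1 on both measures. Those of Ser2P, E(z) and M1BP lie above 1 on the first and include 1 on the second, which can run low where HA-AbdA is dense.

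Taken peak by peak, clustered HA-AbdA peaks sat on much the same factors as other HA-AbdA peaks, with M1BP less frequent and GAF and E(z) more frequent. Rpb3 of S2 cells lay at 47.8% of the 1049 clustered peaks (95% interval 44.7 to 50.8%), 47.3% of the other 9224 and 47.4% of all. Rpb3 of S2-AbdA cells lay at 46.2% and 45.6% (45.6% of all). M1BP of S2 cells lay at 27.1% (24.4 to 29.9%) of clustered and 33.6% of other peaks (32.9% of all), and M1BP of S2-AbdA cells at 24.9% and 29.8% (29.3% of all). GAF lay at 33.7% (30.9 to 36.7%) and 27.6% in S2 cells (28.2% of all), and at 49.0% (45.9 to 52.1%) and 41.8% in S2-AbdA cells (42.6% of all). Each of these M1BP and GAF differences exceeds the counting intervals of the 2 shares. Their sizes depended on the rule, while their signs did not under the alternatives run. The M1BP difference was -6.48 percentage points in S2 and -4.91 in S2-AbdA cells, -3.40 and -3.05 with clusters of 10 or more HA-AbdA peaks, -12.1 and -11.9 with a gap of 5000 bp, and -4.46 and -2.37 with the higher-scoring 50% of a list. For GAF of S2 cells it was 6.14, and 2.74 with clusters of 10 or more and 3.43 with the higher-scoring 50%. For GAF of S2-AbdA cells it was 7.16, and 4.63 with clusters of 10 or more.

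E(z) of S2 cells lay at 29.3% of clustered HA-AbdA peaks (95% interval 26.5 to 32.1%) and 23.0% of the others (23.6% of all), and in S2-AbdA cells at 26.4% and 20.05% (20.7% of all). When clusters of 10 or more HA-AbdA peaks were taken, the E(z) difference was 0.0989 percentage points in S2 and 0.819 in S2-AbdA cells. dRing lay at 16.6% and 15.4% in S2 cells (15.5% of all), within counting error, and at 20.6% and 17.6% in S2-AbdA cells (17.9% of all). Ser2P lay at 15.3% and 11.0% in S2 cells (11.4% of all) and at 25.9% and 26.2% in S2-AbdA cells (26.2% of all). The Ser2P difference in S2 cells was -0.0617 percentage points with the higher-scoring 50% of the list, which touched only 13 clustered HA-AbdA peaks.

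Combinations followed the single factors. M1BP without GAF lay at 16.97% of clustered HA-AbdA peaks in S2 cells and 24.8% of the others (24% of all), and GAF without M1BP at 23.6% and 18.8% (19.3% of all). Both Polycomb proteins together with GAF lay at 7.53% and 5.57% in S2 cells (5.77% of all), and at 11.2% (95% interval 9.40 to 13.3%) and 6.96% in S2-AbdA cells (7.4% of all). About as many clustered as other HA-AbdA peaks lay on none of the 6 factors, 33.4% and 34.2% in S2 cells (34.1% of all). Single clusters ranged from 11.5% to 64.3% of HA-AbdA peaks on no S2 factor (median 30.0%). Each of these shares rests on only 20 to 53 peaks, so counting error alone spreads them more widely than the pooled shares. The highest share, 18 of 28 peaks, was at 3L 51175 to 163703, which was picked after its values were seen. Rpb3 had 10 peaks there in each line.

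The 39 clusters differed in whether M1BP or GAF had more peaks. In S2 cells, 27 clusters had more GAF than M1BP peaks and 12 had more M1BP peaks; 46.9% of all 241 clusters of 10 or more HA-AbdA peaks had more GAF. In S2-AbdA cells, whose GAF list is longer, the numbers were 35 and 4 (background 82.6%). Across the 39 clusters, M1BP and GAF densities were inversely related, with Pearson's r of -0.40 (Spearman's rho -0.41) in S2 cells and -0.56 (rho -0.56) in S2-AbdA cells. Densities of dRing and E(z) went together (r 0.60 and 0.75, rho 0.48 and 0.69), as did GAF and E(z) (r 0.55 and 0.60, rho 0.41 and 0.65) and Rpb3 and Ser2P (r 0.50 and 0.54, rho 0.62 and 0.63). HA-AbdA density, which comes from the peaks that chose the clusters, had an r of 0.51 and 0.40 with GAF (rho 0.40 and 0.35), 0.38 and 0.42 with E(z) (rho 0.23 and 0.25), 0.37 and 0.33 with dRing (rho 0.33 and 0.31), and -0.08 and 0.00 with M1BP (rho -0.03 and -0.01). These are descriptions over 39 clusters that share lists, arms and the span in the denominator.

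**Figure D3:**
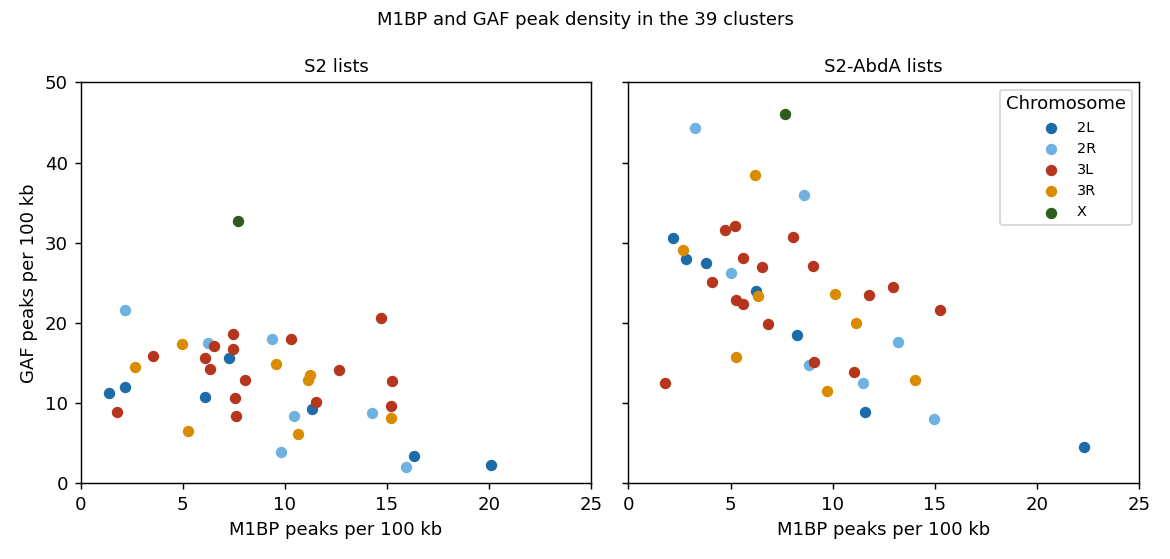
M1BP peaks per 100 kb (horizontal) against GAF peaks per 100 kb (vertical), 1 point per cluster, coloured by chromosome, with the lists of S2 cells on the left and of S2-AbdA cells on the right. The 2 densities are inversely related, with r of -0.40 and -0.56 and wide scatter, and the X cluster has the highest GAF density in each panel.

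At the M1BP end stood 2 neighbouring clusters of 2L. The cluster at 2L 10255504 to 10345143 (29 HA-AbdA peaks) had the most M1BP per kb, with 18 peaks in S2 and 20 in S2-AbdA cells, next to 2 and 4 GAF peaks. It had 6 dRing peaks in S2 cells and was the single cluster with 0 in S2-AbdA cells, while E(z) numbered 11 and 10. The cluster at 2L 10382954 to 10529848 (40 HA-AbdA peaks) had 24 and 17 M1BP peaks, the largest difference downwards for M1BP, with 33 and 29 Rpb3, 5 and 13 GAF, and 11 and 6 E(z) peaks. A similar pattern held at 2R 19901972 to 20002264, which was picked after its values were seen, with 16 and 15 M1BP and 2 and 8 GAF peaks.

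At the GAF end stood the one X cluster, X 12609563 to 12661629, the shortest at 52.1 kb. Its 22 HA-AbdA peaks covered 51.6% of the span, and it had 17 GAF peaks in S2 and 24 in S2-AbdA cells, the highest GAF density of the 39 (32.6 and 46.1 per 100 kb). It also led in E(z), with 14 peaks in each line (26.9 per 100 kb), and held 10 and 12 dRing peaks. Its 4 M1BP peaks in each line (7.68 per 100 kb) were near the medians of the 39, 8.07 and 7.68. The cluster at 2R 7482453 to 7574940 (27 HA-AbdA peaks), picked after its values were seen, had 20 and 41 GAF peaks (21.6 and 44.3 per 100 kb) against 2 and 3 of M1BP. The cluster at 2L 12416065 to 12546948 (42 HA-AbdA peaks) was below the median of the 39 in GAF density in S2 cells (10.7 against 12.9 per 100 kb) and above it in S2-AbdA cells (27.5 against 23.5). It had 14 and 36 GAF peaks against 8 and 5 of M1BP. Its E(z) peaks numbered 22 and 17, the largest difference downwards for that protein, and 5 E(z) regions had a peak in S2 cells alone. At 2R 9797752 to 9925669 (40 HA-AbdA peaks) GAF numbered 23 and 46, the largest difference upwards, with 14 and 15 E(z) peaks.

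dRing peaks were most concentrated at 3L 576088 to 654676 (26 HA-AbdA peaks over 78.6 kb). There were 16 in S2 and 31 in S2-AbdA cells, the highest dRing density in each line (20.4 and 39.4 per 100 kb) and the largest difference upwards, and E(z) had 14 and 19. Ser2P of S2 cells was also densest there, with 7 peaks against 8 in S2-AbdA cells. Elongating polymerase and Polycomb peaks thus lay in the same span of 78.6 kb, which does not place them at the same sites. At 3L 8649549 to 8780872 (35 HA-AbdA peaks) dRing had 14 and 27 peaks and E(z) 10 and 15, the largest difference upwards for E(z). The cluster at 3L 17973917 to 18107814 (34 HA-AbdA peaks) went the other way for dRing, with 19 and 13 peaks, while E(z) numbered 20 and 19 and GAF 25 and 43. It was the most thinly covered by HA-AbdA, at 23.4%.

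Polymerase peaks were densest at 3R 19106399 to 19181972 (21 HA-AbdA peaks), with 40 Rpb3 peaks in S2 and 35 in S2-AbdA cells, or 52.9 and 46.3 per 100 kb. M1BP had 2 peaks there in each line, and Ser2P had 3 and 7. The cluster at 3R 4805794 to 4891220 (23 HA-AbdA peaks) had the most Ser2P per kb in S2-AbdA cells, with 10 peaks against 6 in S2 cells. The highest HA-AbdA coverage, 60.4%, was at 2L 46535 to 143582, where Rpb3 had 28 and 19 peaks, its largest difference downwards, and Ser2P 5 and 10. Next came 3R 5902320 to 5996568, 51.9% covered, with 21 and 20 Rpb3 and 14 and 22 GAF peaks. The other named clusters with over 30 HA-AbdA peaks all lay on 3L. At 3L 17517580 to 17664993 (40 peaks), Rpb3 had 19 and 25 peaks, its largest difference upwards, and GAF 23 and 37. At 3L 11182676 to 11290020 (36 peaks) and 3L 18741230 to 18863847 (32 peaks), GAF had 18 and 24, and 21 and 33.

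**Figure D4:**
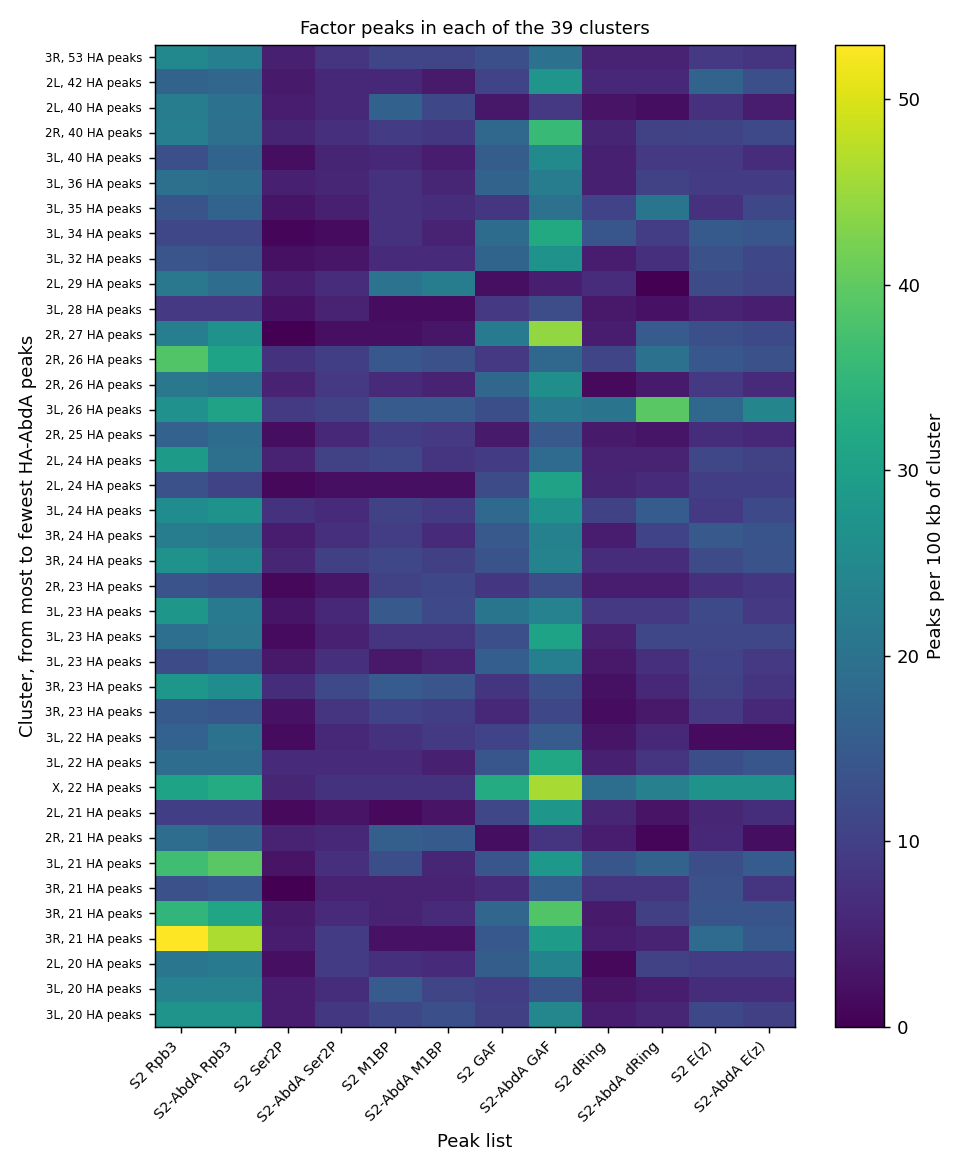
Peaks per 100 kb of span for the 12 factor lists (columns) in each of the 39 clusters (rows, from 53 to 20 HA-AbdA peaks, labelled by chromosome). Rpb3 and the GAF list of S2-AbdA cells are dense in most rows, and bright single cells mark the 3R cluster with 52.9 Rpb3 peaks per 100 kb and the 3L cluster with 39.4 dRing peaks per 100 kb.

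The study's comparison of the lines asked what differed between cells without and with AbdA. GAF had more peaks in S2-AbdA cells than in S2 cells in 39 of 39 clusters (background 93.4% of the 241, with 2.49% having fewer), by 2 to 23 peaks (median 8). Ser2P had more in 37 and fewer in 1, at 3L 9326747 to 9404418 with 6 and 5 (background 83% with more and 2.07% with fewer). Its largest difference was at 2L 2147096 to 2243191, with 2 and 9 peaks. dRing had more in 25 clusters and fewer in 7 (background 56.4% and 19.9%). M1BP had fewer in 22 and more in 8 (background 53.5% and 16.6%), E(z) fewer in 22 and more in 9 (49% and 20.7%), and Rpb3 fewer in 19 and more in 14 (44.4% and 33.2%). These are numbers of peaks. GAF peaks inside had a median width of 804 bp in S2 and 610 bp in S2-AbdA cells. They covered 12.6% and 17.5% of the clusters, against 3.83% and 5.46% of the rest. GAF coverage was higher in S2-AbdA cells in most clusters but lower in some. An example, picked after its values were seen, is 3L 21000327 to 21063640, with 9 and 20 peaks and 30.1% and 26.6% covered.

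**Figure D5:**
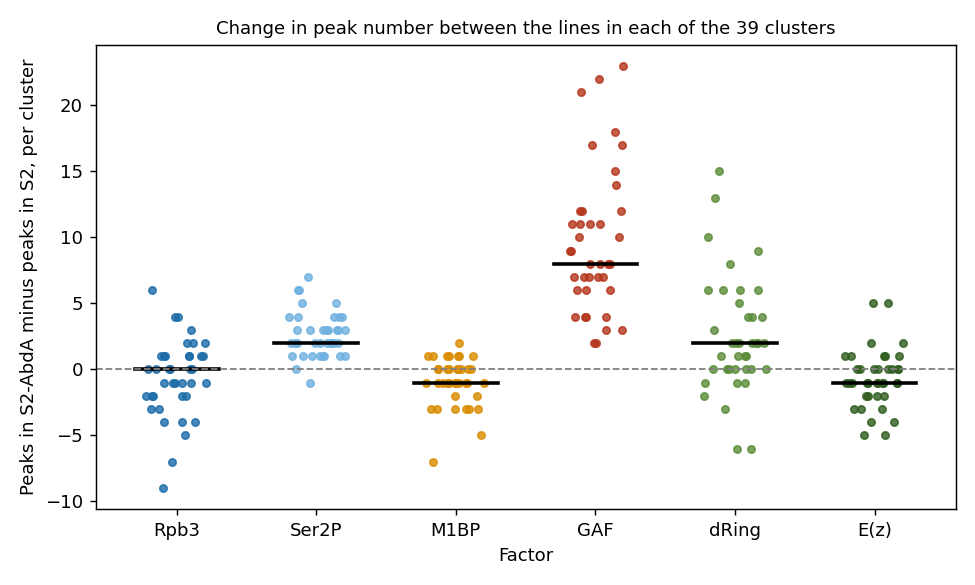
Number of peaks in S2-AbdA cells minus the number in S2 cells for each factor, 1 point per cluster, with the median as a black line and equality as a dashed line. All 39 GAF points lie above 0, from 2 to 23, and the medians are 0 for Rpb3, 2 for Ser2P, -1 for M1BP, 8 for GAF, 2 for dRing and -1 for E(z).

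These directions were those of the whole lists, which also hold peaks outside the 5 chromosomes with clusters. Of 7083 GAF peaks of S2 cells, 455 lay inside the clusters and 4904 in the rest. Of 9530 in S2-AbdA cells, 831 and 8605 did. For Ser2P these numbers were 4309, 135 and 1519 in S2 cells, and 6377, 237 and 3352 in S2-AbdA cells. The ratios that follow are for the 5 chromosomes only. Peak numbers of S2-AbdA over S2 cells had a ratio of 1.83 inside the clusters and 1.75 in the rest for GAF, 1.44 and 1.36 for dRing, 0.968 and 0.951 for Rpb3, 0.890 and 0.893 for M1BP, and 0.932 and 0.919 for E(z). Ser2P stood apart with 1.76 inside and 2.21 in the rest. When peaks of the 2 lines were merged into regions, 46.4% of 239 Ser2P regions inside the clusters (95% interval 40.0 to 53.0%) had a peak in S2-AbdA cells alone, against 57.3% in the rest (background 56.6%). With the higher-scoring 50% of both lists that difference turned, to 16.6 percentage points in favour of the clusters. That cut left 10 of the 135 S2 and 90 of the 237 S2-AbdA Ser2P peaks inside. A region that kept its S2-AbdA peak but not its S2 peak then counted as S2-AbdA alone. Of the 239 regions, 5 had a peak in S2 cells alone (background 1.52%).

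GAF regions with a peak in S2 cells alone were less frequent inside, at 55 of 824 or 6.67% (95% interval 5.07 to 8.60%) against 11.8% in the rest (background 11.4%). GAF regions with a peak in S2-AbdA cells alone made up 45.5% and 48.0% (background 47.8%), within counting error. Among the 6 factors, dRing had the lowest share of regions with peaks in both lines, inside the clusters and in the rest alike. Of 419 dRing regions, 114 had peaks in both lines (27.2%, 95% interval 23.0 to 31.7%), against 34.4% in the rest. Those with a peak in S2-AbdA cells alone made up 47.7% and 42.4% (background 42.8%), and those with a peak in S2 cells alone 25.1% and 23.2% (background 23.4%). With a gap of 5000 bp, which left 4 clusters, the dRing difference in S2-AbdA-only regions was -5.32 percentage points, on 12 such regions. It was 5.38 in the main analysis, 9.47 with clusters of 10 or more HA-AbdA peaks and 23.8 with the higher-scoring 50% of both lists. That last cut left 47 of the 221 S2 and 106 of the 318 S2-AbdA dRing peaks inside. E(z) regions had a peak in both lines in 65.8% and 66.9% of cases, with 13.9% in S2-AbdA cells alone (background 12.7%) and 20.3% in S2 cells alone (background 20.6%).

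Rpb3 regions had a peak in S2-AbdA cells alone in 10.8% of cases inside the clusters and in S2 cells alone in 16.99% (background 11.7% and 18.8%). For M1BP these shares were 8.70% and 19.6% (background 7.4% and 18.4%). The differences of both factors from the rest lay within counting error. Of the 105 dRing regions of the clusters with a peak in S2 cells alone, 99 touched an HA-AbdA peak (94.3%, 95% interval 88.0 to 97.9%), against 97 of 114 with peaks in both lines (85.1%, 77.2 to 91.1%) and 153 of 200 in S2-AbdA cells alone (76.5%, 70.0 to 82.2%). For E(z) the 3 shares were 91.5%, 90.8% and 90.6%. In the rest, where fewer bases are covered by HA-AbdA, the same shares were 69.5%, 43.9% and 53.1% for dRing and 72.6%, 56.9% and 63.7% for E(z).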

How the data were processed

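ChIP-seq peak lists of S2-DRSC and S2-AbdA cells were used, 1 per antibody and line. The submitters' processing notes name BWA 0.7.12, MACS2 and build dm3; how the authors set these tools and combined replicates is not stated. Peak scores were deposited without a unit, and a score ranked and filtered peaks within a list only. Peak names in the files call the Ser2P peaks broad. The HA control sample and 6 input samples were not analysed here. The reference genome at hand was of another build, so no sequence or gene was read by position.

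Clusters were built with Python 3.11.15, numpy 2.4.6, pandas 2.3.3 and scipy 1.17.1. A peak lay inside when its whole length did, chromosome length was the largest end in any list, and an overlap of 1 bp counted as shared. Peaks of both lines that overlapped were merged into regions. No test was run. Counts were checked against bedtools 2.31.1 (39 clusters, 24 counts of peaks and 12 of regions, 0 differing) and ratios were tested on simulated data. Starts are 1-based.

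Named clusters were the 10 with most HA-AbdA peaks, the 3 with the highest coverage, the densest per list, and those with the largest difference per factor. Members and lists were chosen with earlier results of these data known. Alternatives were a gap of 5000 bp, 10 or more peaks, peak midpoints, the higher-scoring 50% of a list, overlap of 50% of the shorter peak, and smaller clusters as comparison. Leaving out the clusters of 3L, or the largest cluster, was added after seeing the data.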

Additional observations from a re-analysis of the deposited data

How the results depend on the processing

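The number of clusters depended on the rule: 4 with a gap of 5000 bp, 241 with 10 or more HA-AbdA peaks, and 0 when only the higher-scoring 50% of HA-AbdA peaks were joined. Density ratios to the rest of the chromosomes stayed above 1 for all 12 lists under every change of gap, number, score or arm, moved by less than counting error with peak midpoints and without the largest cluster, and moved beyond it in these cases. With a gap of 5000 bp they were 3.78 and 3.40 for Rpb3, 3.61 and 2.63 for Ser2P, 1.75 and 1.57 for M1BP, 3.81 and 3.42 for GAF, 3.96 and 4.05 for E(z) (S2 and S2-AbdA cells), and 3.29 for dRing in S2 cells. With 10 or more peaks they were 3.48 and 3.55 for Rpb3, 2.51 and 2.44 for M1BP, and, in S2-AbdA cells, 2.88 for Ser2P and 2.89 for E(z). With the higher-scoring 50% of a list they were 1.04 and 2.64 for Ser2P, 2.40 and 2.47 for E(z), 1.29 and 2.15 for dRing, and 3.37 for GAF in S2-AbdA cells. Without the clusters of 3L they were 2.62 for S2 GAF and 2.023 and 2.004 for dRing. Against clusters of 2 to 19 peaks they were 1.09 and 1.09 for Rpb3, 1.33 and 1.41 for E(z), 1.23 and 1.27 for dRing, 1.32 and 1.25 for GAF, 0.867 and 0.866 for M1BP, and 1.15 and 0.963 for Ser2P, so S2-AbdA Ser2P and M1BP of both lines changed direction.

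The share of HA-AbdA peaks on a factor, as clusters minus rest in percentage points, moved as follows. With 10 or more peaks it was 3.75 for S2 Rpb3, 4.10 for S2-AbdA Ser2P, -3.40 for S2 M1BP, 2.74 for S2 GAF, -2.89 for S2 dRing, and 0.0989 and 0.819 for E(z). With a gap of 5000 bp it was -3.81 for S2-AbdA Rpb3, 7.22 and 7.60 for Ser2P, -12.1 and -11.9 for M1BP, and -1.64 for S2-AbdA dRing, which changed direction. With the higher-scoring 50% it was -0.0617 for S2 Ser2P (changed direction), -1.67 for S2 dRing, and 2.34 and 2.39 for E(z). Requiring 50% overlap moved none of the 12 beyond counting error.

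Shares of regions gained (S2-AbdA cells alone) differed, on the same scale and with a gap of 5000 bp, by -4.59 for E(z), -5.32 for dRing (changed direction), -11.9 for GAF, -7.42 for M1BP and -3.88 for Rpb3. With the higher-scoring 50% they differed by 1.14 for Rpb3, -3.18 for M1BP, 16.6 for Ser2P (changed direction), 23.8 for dRing, 10.2 for E(z) and 2.84 for GAF, and with 10 or more peaks by -1.13 for Ser2P and 1.22 for GAF. Shares lost (S2 cells alone) differed, with a gap of 5000 bp, by 6.20 for Rpb3, -1.53 for Ser2P, -8.30 for GAF, -7.11 for E(z) and 11.1 for dRing, and with the higher-scoring 50% by 7.13 for E(z) and -3.06 for dRing. A change of direction is marked only where the reported interval does not include 0 (for a ratio, 1). Some values whose interval includes 0 also changed sign, such as E(z) and M1BP regions gained with a gap of 5000 bp. The causes were not tested. The gap of 5000 bp rests on 4 clusters, and the higher-scoring 50% left 10 S2 Ser2P peaks and 47 S2 dRing peaks inside. No paired analysis was possible because both replicates of a factor share 1 list, and for the same reason no replicate could be left out.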
